A study of Mus musculus with 9 samples.

Results

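The genes described here are 9 complement and acute-phase genes, C3, C4b, C2, Cfb, C1ra, Serping1, Serpina3n, Lcn2 and Il1rn, in primary cultures of the stromal vascular fraction (SVF) of mouse fat. Each was represented by the array row (a transcript cluster, the set of probes summarised as 1 value) that the platform annotation assigned to that symbol alone. A row of this kind was found for 8 of the 9 genes, 1 row each, among 33323 transcript clusters. C3 had no row of its own and was not analysed here. The values were log2 signals, which include the array background, so every fold given below is a ratio of signals and can understate a change in RNA. Tests compare levels of a gene between samples; where a gene is called the brightest of a list, this is the order of probe signals and not of RNA amounts.

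All cells came from subcutaneous adipose tissue of C57BL6/J mice aged 10 weeks. They were grown on uncoated plastic in IMDM with 10% FBS, glutamine, antibiotics and a reducing agent, with no inducing factor or other treatment in any group. In the beating group (4 samples, day 28), colonies that contracted spontaneously were picked by hand and combined, each sample from a few dishes of a single SVF lot. The study proposes that these picks also held round cells and skeletal myocytes that did not beat, so this group was a mixture too. The non-beating group (4 samples, day 28) was the rest of the cells in the dishes, a mixture of whatever SVF cell types were left. The round sample was a single pool of 6 round cells picked on day 14. Whether the replicates came from separate mice or lots is not given in the sources used here, so p-values measure only the spread between these samples, which may be technical. Of 10 striated muscle markers, 9 were higher in beating (mean log2 signal of the list 9.21 ± 0.12 (SD, n = 4) against 3.71 ± 0.19 (n = 4)), and the list stood at 9.36 in the round pool. Over all clusters, 1114 (3.34%) were lower and 940 (2.82%) higher in beating by limma at an adjusted p under 0.05, and the split was 1617 (4.85%) against 837 when each array was centred on its median.

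Complement is a cascade of plasma proteins that tag and lyse targets. In the classical pathway C1r, a protease of the C1 complex, activates its partner C1s, which cuts C4 and C2, whose fragments form the convertase that cleaves C3, whereas in the alternative pathway factor B provides the protease of the convertase. C1 inhibitor (Serping1) blocks C1r and C1s. Acute-phase proteins are those whose plasma level shifts in inflammation, most of them made by the liver under interleukin-6 and interleukin-1, but stromal cells and adipocytes of fat make many of them too. Serpina3n is a secreted serine protease inhibitor, Lcn2 binds iron-carrying siderophores, and Il1rn encodes the antagonist of the interleukin-1 receptor.

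RefSeq promoter windows (GRCm38.p6, the 250 bases before a transcript start, written in the direction of transcription) were at hand for 5 of the 9 genes, 4 of which had an array row. They are shown because these 4 genes were all lower in beating, and so that the motifs searched for can be seen in place. Capitals mark matches on either strand to an NF-kB-shaped motif (GGGNNNNNCC) or a C/EBP-shaped motif (TTNNGNAA), after the transcription factors that act downstream of interleukin-1 and interleukin-6. Il1rn has several annotated starts, and an intermediate window overlapping the downstream one is not shown.
Serpina3n, chr12:104406458-104406707, plus strand: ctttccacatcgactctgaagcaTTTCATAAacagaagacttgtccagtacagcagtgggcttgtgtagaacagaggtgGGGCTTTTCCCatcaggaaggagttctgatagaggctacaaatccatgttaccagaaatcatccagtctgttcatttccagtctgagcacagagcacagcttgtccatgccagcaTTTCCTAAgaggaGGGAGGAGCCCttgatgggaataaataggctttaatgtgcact
Lcn2, chr2:32387740-32387989, minus strand: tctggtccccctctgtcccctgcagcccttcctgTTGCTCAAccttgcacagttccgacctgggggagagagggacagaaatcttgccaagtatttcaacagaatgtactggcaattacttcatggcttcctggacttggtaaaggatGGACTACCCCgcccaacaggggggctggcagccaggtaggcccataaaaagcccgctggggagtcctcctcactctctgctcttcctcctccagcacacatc
C1ra, chr6:124512371-124512620, plus strand: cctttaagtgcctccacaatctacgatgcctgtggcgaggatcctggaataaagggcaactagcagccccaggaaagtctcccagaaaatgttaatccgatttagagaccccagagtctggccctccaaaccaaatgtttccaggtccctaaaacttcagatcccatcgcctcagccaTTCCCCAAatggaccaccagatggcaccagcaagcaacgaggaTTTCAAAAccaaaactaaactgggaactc
Il1rn, upstream start, chr2:24336610-24336859, plus strand: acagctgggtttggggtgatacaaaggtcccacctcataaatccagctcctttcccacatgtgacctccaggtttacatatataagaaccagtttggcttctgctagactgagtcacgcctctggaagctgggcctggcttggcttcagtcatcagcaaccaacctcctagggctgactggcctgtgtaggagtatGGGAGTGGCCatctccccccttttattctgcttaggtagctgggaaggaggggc
Il1rn, downstream start, chr2:24345121-24345370, plus strand: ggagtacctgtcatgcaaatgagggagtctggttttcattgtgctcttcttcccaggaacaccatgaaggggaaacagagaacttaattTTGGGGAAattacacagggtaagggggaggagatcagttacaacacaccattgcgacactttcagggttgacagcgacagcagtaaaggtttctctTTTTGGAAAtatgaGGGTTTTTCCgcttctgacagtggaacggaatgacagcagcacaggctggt

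An NF-kB-shaped match lay in the windows of Serpina3n, Lcn2 and both Il1rn starts, and a C/EBP-shaped match in those of Serpina3n, Lcn2, C1ra and the downstream Il1rn start. In Serpina3n the matches to the NF-kB-shaped motif on the 2 strands overlapped at both places where they occurred. These short motifs are common, the NF-kB-shaped one occurring in 45.8% and the C/EBP-shaped one in 36.8% of 32851 RefSeq promoter windows of the same length. No printed window held a STAT-shaped motif (TTCNNNGAA, 7.02% of all windows) or a TATA box (TATAAA, 12.4% of all windows). A match is a description of these letters and not a site of binding.

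The comparison of beating with non-beating samples asked how the picked contractile colonies, with any other cells in them, differed from the remainder of the cultures. All 8 genes had a lower mean in beating (48.1% of all clusters did), with a median log2 difference of -1.36. Of these, 5 passed the test (Serpina3n, Cfb, Lcn2, Il1rn and C1ra), none was higher by limma, and 3 did not pass (C4b, Serping1 and C2). At an unadjusted p under 0.05 all 8 were lower, as were 12% of all clusters, and by the methods' t-test after Benjamini-Hochberg adjustment 4 were (1.13% of all clusters). In 5 of the 8 genes every beating array lay below every non-beating array, as it did in 8.24% of all clusters, and 3 were both called and at least 2-fold lower, as 0.753% were. For comparison, 3.34% of all clusters were called lower by limma, 6.54% of the 16661 clusters above the median level were, and the median difference was 0.0073 over all clusters and -0.046 in the brighter ones. The genes were chosen with earlier results of these data known, so their excess over these shares is a description and not a test. In bulk samples such as these, fewer cells of an expressing type and less RNA per cell cannot be told apart.

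**Figure D1:**
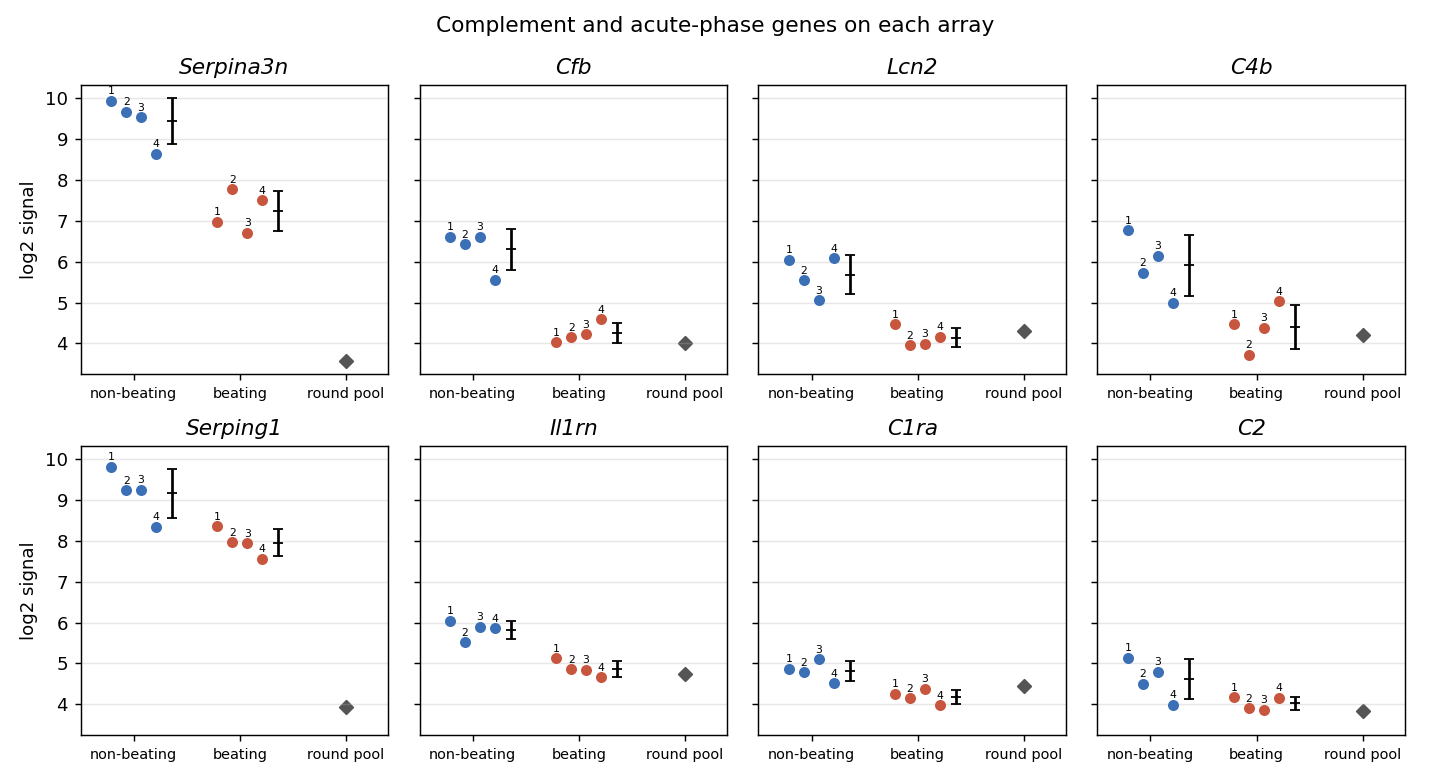
Log2 signal (vertical axis) of the 8 genes on each array, with replicate numbers over the points, the mean and SD of each group of 4 beside them, and the single round pool as a diamond. The beating and non-beating points separate in Serpina3n, Cfb, Lcn2, Il1rn and C1ra and overlap in C4b, Serping1 and C2, where non-beating replicate 4 is the lowest non-beating point.

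Among the genes of the classical pathway, C1ra encodes C1r, the protease that activates C1s. It read 4.25, 4.14, 4.38 and 3.97 in beating replicates 1 to 4 and 4.87, 4.79, 5.10 and 4.51 in non-beating replicates 1 to 4. The groups were separate by 0.14, less than the spread within either of them. C1ra was 1.55-fold lower in beating (log2 difference -0.63 ± 0.14 (SE, n = 4 and 4), limma adjusted p = 0.0351). That call was lost without any 1 of 6 arrays, namely beating replicates 1, 2 and 4 and non-beating replicates 1, 2 and 3 (adjusted p up to 0.0951), while the log2 difference stayed between -0.73 and -0.54 over all 8 omissions. A separate row that the annotation shares between C1ra and its close copy C1rb read 3.53 ± 0.26 in beating and 4.01 ± 0.32 in non-beating (SD, n = 4; adjusted p = 0.186). How far the probes of these rows separate the copies is not given in the sources used here.

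C4b encodes complement component 4, the next protein of the classical pathway. It read 4.47, 3.72, 4.39 and 5.03 in beating and 6.77, 5.73, 6.14 and 5.00 in non-beating replicates 1 to 4. Only the pair of replicates numbered 4 overlapped, beating replicate 4 being the highest of its group and non-beating replicate 4 the lowest of its own. The log2 difference of -1.51 ± 0.40 (SE, 2.85-fold) did not pass (limma adjusted p = 0.0683), with a 95% interval from -2.43 to -0.59 before adjustment. It passed without non-beating replicate 4 (-1.82, adjusted p = 0.0383, against 0.0383 to 0.165 over the 8 omissions) and when clusters below the median level were left out (adjusted p = 0.0358). C4a, the near-identical neighbour that RefSeq lists as a transcribed pseudogene, read 2.91 ± 0.15 in beating and 3.28 ± 0.24 in non-beating (SD, n = 4; adjusted p = 0.152), both near the arrays' medians of 3.08 to 3.17.

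C2 encodes the protease that joins C4 in the classical convertase. It read 4.16, 3.90, 3.87 and 4.16 in beating and 5.14, 4.50, 4.80 and 3.99 in non-beating replicates 1 to 4. Non-beating replicate 4 lay within the beating range, and the other 3 non-beating arrays lay above it. The log2 difference was -0.58 ± 0.23 (SE), which did not pass (limma adjusted p = 0.192), and it became -0.79 without non-beating replicate 4 (adjusted p = 0.0490, and up to 0.359 without another array).

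Cfb encodes factor B and lies next to C2 on chromosome 17, with no other protein-coding gene between them. It read 4.03, 4.15, 4.22 and 4.60 in beating and 6.61, 6.43, 6.61 and 5.56 in non-beating replicates 1 to 4. Every non-beating array was above every beating array, with a gap of 0.97 between the groups, although non-beating replicate 4 was again well below its companions. The signal was 4.15-fold lower in beating (log2 difference -2.05 ± 0.25 (SE, n = 4 and 4), limma adjusted p = 0.00315). This held without any 1 array (adjusted p up to 0.0167, difference -2.30 to -1.95).

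Serping1, which encodes C1 inhibitor, read 8.36, 7.96, 7.95 and 7.56 in beating and 9.81, 9.24, 9.25 and 8.35 in non-beating replicates 1 to 4. Beating replicate 1 and non-beating replicate 4 were level, which alone brought the groups into contact. The log2 difference of -1.21 ± 0.30 (SE, 2.31-fold) did not pass (limma adjusted p = 0.0571), with an unadjusted 95% interval from -1.90 to -0.51. It passed without non-beating replicate 4 (-1.48, adjusted p = 0.0152, and up to 0.146 without another array) and with each array centred on its median (adjusted p = 0.0422). It also passed with array weights (0.0397), with dim clusters left out (0.0301) and with a replicate block (0.0176).

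Serpina3n, an inhibitor of proteases such as granzyme B in the mouse, had the largest difference of the 8 genes. It read 6.98, 7.77, 6.71 and 7.50 in beating and 9.94, 9.68, 9.53 and 8.65 in non-beating replicates 1 to 4. The groups were separate by 0.88, with non-beating replicate 4 the nearest to the beating arrays. The signal was 4.62-fold lower in beating (log2 difference -2.21 ± 0.32 (SE, n = 4 and 4), limma adjusted p = 0.00783), and the call held without any 1 array (adjusted p up to 0.0334). Of the other Serpina3 genes, Serpina3a and Serpina3b had a row of their own, at 2.04 and 2.24 in beating and 2.02 and 2.21 in non-beating, all below the arrays' medians.

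Lcn2 encodes lipocalin 2, a siderophore-binding protein of the innate immune system that fat cells and neutrophils also release. It read 4.47, 3.95, 3.99 and 4.16 in beating and 6.05, 5.55, 5.05 and 6.09 in non-beating replicates 1 to 4. Here non-beating replicate 4 was the highest array and replicate 3 the lowest of the group, and the groups were separate by 0.59. The signal was 2.91-fold lower in beating (log2 difference -1.54 ± 0.24 (SE, n = 4 and 4), limma adjusted p = 0.00977), and the call held without any 1 array (adjusted p up to 0.0332).

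Il1rn read 5.13, 4.85, 4.84 and 4.66 in beating and 6.04, 5.52, 5.90 and 5.85 in non-beating replicates 1 to 4. Beating replicate 1 was the highest of its group and non-beating replicate 2 the lowest of its own, and the groups were separate by 0.39. The signal was 1.94-fold lower in beating (log2 difference -0.96 ± 0.14 (SE, n = 4 and 4), limma adjusted p = 0.00662), and the call held without any 1 array (adjusted p up to 0.0289).

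**Figure D2:**
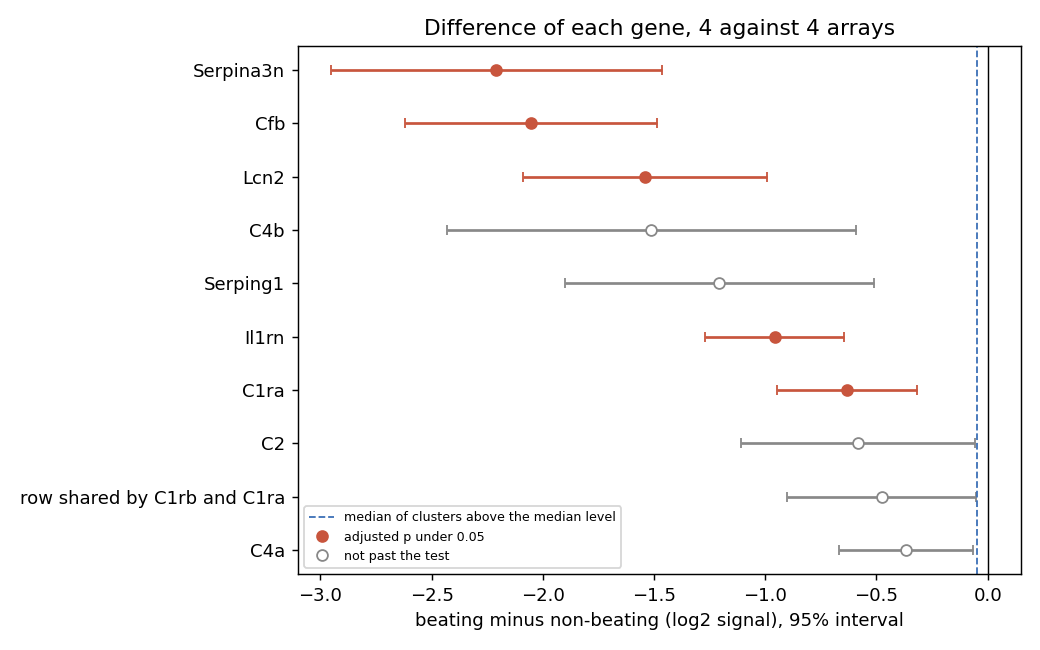
Log2 difference, beating minus non-beating (horizontal axis), of the 8 genes and of the C4a and shared C1rb and C1ra rows, with 95% intervals before adjustment over clusters; filled points passed at an adjusted p under 0.05. All points lie below the dashed line at -0.046, the median of the clusters above the median level, and the interval of C4b, from -2.43 to -0.59, is the widest.

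Within the non-beating group, the same array was low for most of the genes. Non-beating replicate 4 was the lowest non-beating array for 6 of the 8 genes (C4b, C2, Cfb, Serping1, Serpina3n and C1ra), whereas it was the lowest for 26.7% of all clusters. Non-beating replicate 1 was the highest for 5 of the 8, a count for which the share of all clusters was not computed. Without non-beating replicate 4 all 8 genes were called lower, beside 2.07% of all clusters. With group means taken off, the correlation over the 8 arrays was 0.90 between C4b and C2, 0.82 between C4b and Cfb, 0.82 between C2 and Serping1 and 0.81 between C2 and Cfb. Over the 15 pairs of the 6 genes that were lowest in non-beating replicate 4, a group set after their values were seen, it ran from 0.13 to 0.90 with a median of 0.57. The 7 pairs with Lcn2 ran from -0.58 to 0.37 with a median of -0.077. These correlations share the same 8 arrays and their scaling and are given as a description.

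Marker levels of other cell types moved with the groups and, within them, with some of the genes. The 10 fibroblast markers had a mean log2 signal of 8.09 ± 0.18 in beating and 8.95 ± 0.28 in non-beating (SD, n = 4). Their summed signals were 5186 to 7507 and 8255 to 11930. Of them, 8 were lower in mean in beating, 3 were called lower (Dcn, Thy1 and Pdgfra) and 7 did not pass. Col1a1 read higher in beating (7.74 against 7.28) and Col1a2 was level (7.60 against 7.55). For the list mean, non-beating replicate 4 was the lowest of its group at 8.60. With group means taken off, the correlation with this list was 0.89 for Cfb, 0.82 for Serpina3n, 0.79 for C2 and 0.78 for C4b. It was 0.48 for Serping1 and 0.22 for C1ra, but -0.12 for Il1rn and -0.22 for Lcn2. The 14 macrophage markers stood at 4.24 ± 0.80 in beating and 6.06 ± 0.79 in non-beating, with summed signals of 169 to 1317 and 1341 to 4671 and 1 gene called lower (Mpeg1; 12 at an unadjusted p under 0.05). For macrophages non-beating replicate 4 was the highest array at 6.88, whereas it was the lowest non-beating array for 6 of the 8 genes. Correlations with that list were -0.83 for Serping1, -0.79 for Il1rn, -0.72 for C1ra, -0.60 for C2 and 0.08 for Lcn2. They were -0.27 for C4b, -0.26 for Serpina3n and -0.20 for Cfb. The striated muscle markers were also highest of the non-beating arrays in replicate 4, at 3.92. Correlations with them were -0.71 for Cfb, -0.69 for C1ra, -0.63 for C4b and -0.62 for C2. For Serping1, Serpina3n, Il1rn and Lcn2 they were -0.46, -0.36, -0.18 and 0.49.

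The 9 adipocyte markers had a mean of 4.09 ± 0.13 in beating and 4.75 ± 0.10 in non-beating (SD, n = 4). Their summed signals were 318 to 526 and 1145 to 1390, of which Lpl, at 7.57 and 9.70, was a large part. Of them, 3 were called lower (Lpl, Adipoq and Pparg) and 6 did not pass. In mean, 6 were lower in beating, with a median difference of -0.20 over the list. Lep, Pck1 and Dgat2 read slightly higher in beating. With group means taken off, the correlation with this list was 0.83 for C4b, higher than its 0.78 with the fibroblast markers, 0.61 for C2, 0.42 for Cfb and 0.37 for Lcn2, and it lay between -0.04 and 0.28 for the other 4 genes. Markers of the cell types best known for these proteins elsewhere were near background in their mean over the 8 arrays, with 1 exception. None of 9 neutrophil markers was above the median level of all clusters (means 2.47 and 2.51, summed signals 49.4 to 51.3 and 49.5 to 59.7). On a single array, non-beating replicate 4, S100a8 read 3.90, against 2.42, 2.42 and 2.58 in non-beating replicates 1 to 3. Of 7 hepatocyte markers only Apoa2 was above the median level (list means 2.71 and 2.84, summed signals 53.7 to 59.4 and 72.9 to 85.5; Alb 2.20 and 2.15). Apoa2, which encodes an apolipoprotein of high-density lipoprotein, read 4.61 ± 0.20 in beating and 5.55 ± 0.17 in non-beating (SD, n = 4) and was called lower like the 5 genes above (log2 difference -0.94, limma adjusted p = 0.00492). By limma, none of 8 endothelial and none of 7 lymphocyte markers was called (0 and 1 at an unadjusted p under 0.05), and 1 of 8 mesothelial markers (Msln) was higher. No marker can read 0 on this scale, which includes background. The part of fibroblast, macrophage, adipocyte and striated muscle content in the differences of the 8 genes was not tested.

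**Figure D3:**
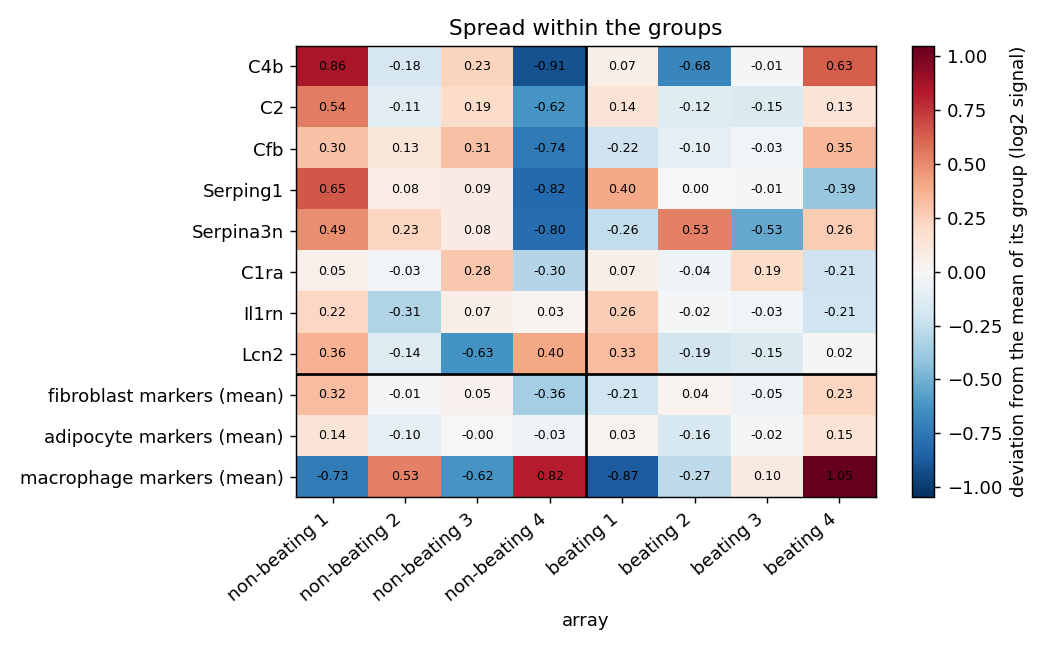
Deviation of each array from the mean of its own group (log2 signal, colour and printed values) for the 8 genes and for the mean of 3 marker lists. In non-beating replicate 4, C4b, Serping1, Serpina3n, Cfb and C2 lie 0.62 to 0.91 below their group mean and the macrophage markers 0.82 above theirs.

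Around the 8 genes, 9 lists of related genes were followed, with 163 genes of which 139 had a row of their own. By limma 23 (16.5%) were lower in beating, as 3.34% of all clusters were, none was higher, and 116 did not pass. At an unadjusted p under 0.05, 49 of the 139 differed in either direction. All 23 were among the 71 listed genes above the median level, of which they made up 32.4%, against 6.54% of all clusters above that level. The lists, too, were chosen with earlier results of these data known. The median log2 difference over the 139 genes was -0.07. Only 6 of the 23 (Lbp, Steap4, Ptx3, Colec12, Il33 and Cebpa) kept their call in each of the 8 fits without 1 array, and the lists together gave 7 to 16 lower calls in those fits. Of the 23, 13 were lowest in non-beating replicate 4 within their group.

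Of the complement recognition molecules and initiating proteases, 3 of 16 were lower. C1s1, which encodes C1s and lies beside C1ra on chromosome 6, read 5.16, 5.13, 4.60 and 5.43 in beating and 7.25, 6.70, 6.36 and 5.85 in non-beating replicates 1 to 4. It thus had its lowest non-beating value in replicate 4 like C1ra, and was 2.76-fold lower in beating (log2 difference -1.46 ± 0.30 (SE), limma adjusted p = 0.0292; up to 0.0903 without 1 array). Cfp, which encodes the convertase stabiliser properdin, differed by -0.88 (adjusted p = 0.0398; up to 0.115 without 1 array) and the scavenger receptor collectin Colec12 by -0.73 (adjusted p = 0.0077). The brightest gene that did not pass was C1qc, a chain of the C1q recognition subunit, which macrophages make. It read 3.05, 5.09, 5.42 and 6.32 in beating and 6.32, 7.82, 6.74 and 8.11 in non-beating replicates 1 to 4 (adjusted p = 0.108). The order of its non-beating arrays followed the macrophage markers, highest in replicates 4 and 2, and not that of C1ra, C1s1 or C4b.

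None of 7 terminal components and none of 14 regulators was called by limma (1 and 2 at an unadjusted p under 0.05). The brightest terminal gene, C8g, read 3.17 in beating and 3.12 in non-beating, near the arrays' medians. The brightest regulator, Cr1l, which encodes the membrane regulator Crry, read 6.89 ± 0.07 and 7.13 ± 0.22 (SD, n = 4; adjusted p = 0.260). Of 11 receptors, C3ar1, the receptor for the C3a fragment, was lower. It read 4.01, 4.81, 5.55 and 6.93 in beating and 7.51, 8.84, 7.67 and 9.34 in non-beating replicates 1 to 4, high in the same non-beating replicates 2 and 4 as C1qc. The log2 difference was -3.02 ± 0.66 (SE, 8.09-fold, limma adjusted p = 0.0383), and 7 of the 8 fits without 1 array lost the call (adjusted p up to 0.112). Calreticulin (Calr), a chaperone that can bind C1q, read 8.74 ± 0.10 and 8.80 ± 0.07 (adjusted p = 0.685).

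Of 27 other acute-phase genes 7 were lower. Lbp, which encodes the lipopolysaccharide-binding protein, read 7.25, 6.61, 7.34 and 7.24 in beating and 9.37, 8.84, 8.83 and 8.39 in non-beating replicates 1 to 4. The groups were separate by 1.05, more than for any of the 8 genes, and Lbp was 3.36-fold lower in beating (log2 difference -1.75 ± 0.23 (SE), limma adjusted p = 0.00504). Haptoglobin (Hp) differed by -1.49 (adjusted p = 0.0227), the metalloreductase Steap4 by -1.15 (0.0109), the metallothionein Mt2 by -0.83 (0.0197), ceruloplasmin (Cp) by -0.81 (0.0286) and the long pentraxin Ptx3 by -0.64 (0.0105). Of these, Hp, Mt2 and Cp lost the call in some fits without 1 array (adjusted p up to 0.0695, 0.0689 and 0.083). Saa3, the serum amyloid A gene that is active outside the liver and the brightest of the list not to pass, read 5.83, 4.54, 4.81 and 3.83 in beating and 6.14, 6.27, 6.10 and 5.65 in non-beating. Beating replicate 1 reached the non-beating range (adjusted p = 0.0958).

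Among 8 serpins outside the 9 genes, limma called none (2 at an unadjusted p under 0.05), and the brightest, Serpinf1 (pigment epithelium-derived factor), read 9.22 ± 0.34 and 9.80 ± 0.14 (SD, n = 4; adjusted p = 0.0853). Of 10 genes for lipocalin 2 receptors, partners and related lipocalins, only apolipoprotein D (Apod) was lower (log2 difference -1.46 ± 0.32 (SE), limma adjusted p = 0.0357; up to 0.101 without 1 array). The lipocalin 2 receptor Slc22a17 read 4.78 ± 0.06 in beating and 4.60 ± 0.19 in non-beating (adjusted p = 0.360).

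In the interleukin-1 family, to which the antagonist Il1rn belongs, 4 of 18 genes were lower. The alarmin Il33 read 4.76, 4.68, 5.08 and 5.66 in beating and 7.13, 6.90, 6.82 and 6.20 in non-beating replicates 1 to 4. The groups did not overlap, and Il33 was 3.29-fold lower in beating (log2 difference -1.72 ± 0.26 (SE), limma adjusted p = 0.00943; up to 0.0387 without 1 array). The receptor subunit Il1rap differed by -1.16 (adjusted p = 0.0490), the interleukin-36 receptor Il1rl2 by -0.98 (0.0395) and the pathway inhibitor Irak3 by -0.81 (0.0422), and each of these 3 lost the call in most or all fits without 1 array (adjusted p up to 0.132, 0.106 and 0.121). The kinase Irak1 read 5.55 ± 0.06 and 5.52 ± 0.03 (SD, n = 4; adjusted p = 0.816).

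Of 28 genes of interleukin-6, NF-kB and STAT signalling 7 were lower. The transcription factor Cebpa differed by -1.20 (limma adjusted p = 0.0134), the shared interleukin-6 family receptor Il6st by -1.02 (0.0257), the kinase Jak2 by -0.94 (0.0246), the oncostatin M receptor Osmr by -0.87 (0.0175), the interferon-gamma receptor Ifngr2 by -0.75 (0.0160) and the transcription factor Cebpd by -0.72 (0.0357). All but Cebpa lost the call in at least 1 fit without 1 array (adjusted p up to 0.0791 for Il6st, 0.0804 for Jak2, 0.0614 for Osmr, 0.0583 for Ifngr2 and 0.106 for Cebpd). The brightest gene not to pass, the kinase Jak1, read 8.64 ± 0.43 in beating and 9.40 ± 0.16 in non-beating (SD, n = 4; adjusted p = 0.0735).

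**Figure D4:**
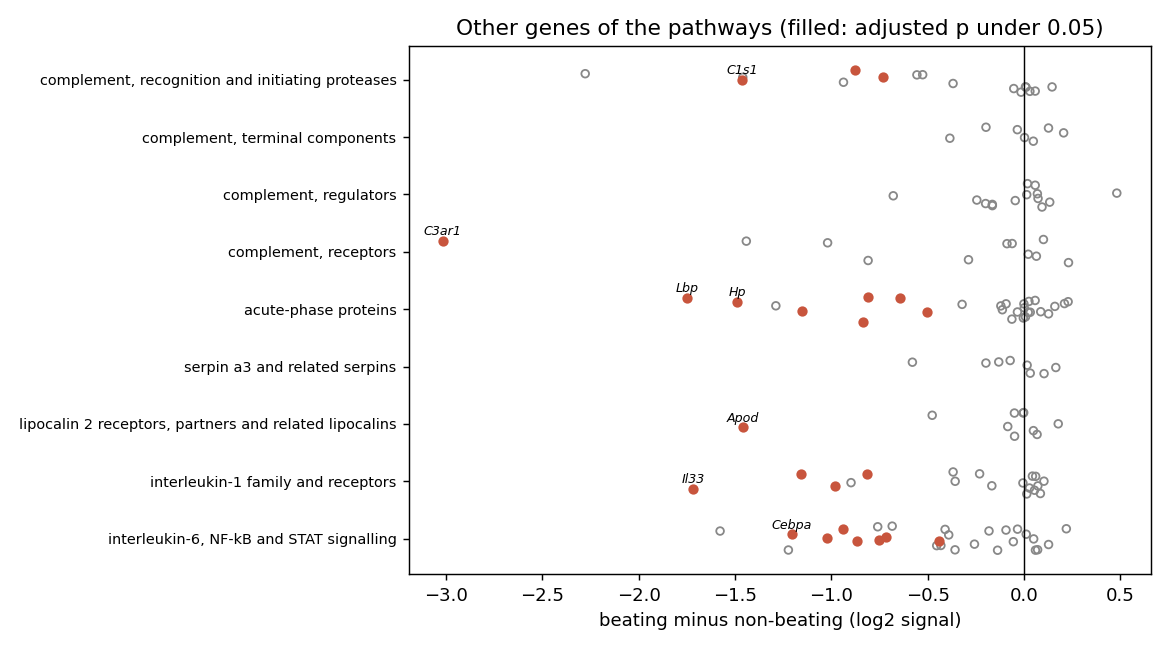
Log2 difference, beating minus non-beating (horizontal axis), of the 139 genes of 9 related lists, 1 point per gene, offset vertically within its list so that points can be told apart; filled points passed at an adjusted p under 0.05. The 23 filled points all lie below 0, and C3ar1 at -3.02 and Lbp at -1.75 are the farthest of them.

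The genes whose pattern over the 8 arrays was most like the mean of the 8 genes, ranked by Pearson's r among 10612 others above the median level, were Clmp (0.994), Ginm1 (0.989), Htr2a (0.984), Runx1t1 (0.984), Col14a1 (0.983) and Gxylt2 (0.983). All 6 were called lower in beating, with log2 differences from -1.48 (Htr2a) to -0.67 (Ginm1), which follows from their being ranked on a pattern that separates the groups. With group means taken off, so that only the spread within groups counted, the closest were Farp2 (0.986), Emx2 (0.982), Vasn (0.977), Selenoo (0.975), Steap3 (0.974) and Ranbp9 (0.972). No gene was on both lists, and of the second 6 only Steap3 passed the test between groups (adjusted p = 0.0358).

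In the round pool, a single sample without a test, all 8 genes read below the non-beating mean, as deposited and under both other scalings tried. After quantile normalization, however, C1ra was nearly level with that mean (-0.048), and Il1rn was at -0.40 against -1.08 as deposited. Over all clusters, the median shift of the pool from the non-beating mean was 0.22 as deposited, but it depended on level. C4b, Cfb, Serping1, Serpina3n and Il1rn were in the brightest of 4 equal bins of clusters by level, where the median shift was -1.29. C2, C1ra and Lcn2 were in the next bin, where it was 0.19. Il1rn thus fell less than the median of its bin. Serpina3n read 3.57 in the pool and Serping1 3.92. These were 5.88 and 5.24 below the non-beating mean and 3.67 and 4.03 below the beating mean on the log2 scale. Both stood far under all 8 other arrays. Cfb read 4.00, C4b 4.20, Lcn2 4.30, Il1rn 4.75, C1ra 4.43 and C2 3.83. As deposited, these 6 differed from the beating mean by at most 0.25, and only Cfb and C2 among them were below all 8 arrays. That closeness depended on the scaling: with each array centred on its median, Cfb read -0.64, C4b -0.59, C2 -0.59 and Il1rn -0.51 relative to the beating mean, and after quantile normalization C1ra read 0.57 above it.

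The difference from beating had no settled sign in 3 of them. C1ra and Lcn2 read 0.25 and 0.16 above the beating mean as deposited but 0.14 and 0.23 below it (-0.14 and -0.23) with each array centred on its median, and Il1rn read 0.12 below (-0.12) as deposited but 0.48 above after quantile normalization. The round array was distributed differently from the others, with a median of 3.54 against 3.08 to 3.17 and a median shift from non-beating of -1.29 in the brightest and of 0.32 in the dimmest of 4 equal bins of clusters by level. Of all clusters 24.4% read below all 8 other arrays in the pool, beside 4 of the 8 genes. The fibroblast markers stood at 4.38 in the pool and the macrophage markers at 3.83, below every beating array for the former. Day of culture, number of cells and picking method differed together between the pool and the other groups and cannot be told apart.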

How the data were processed

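RNA of 9 samples was amplified and hybridised to Affymetrix Mouse Gene 1.0 ST arrays. The authors deposited log2 signals for 33323 transcript clusters. The study's methods describe log2 transformation and normalisation in BRB-ArrayTools; the probe summarisation behind the table is not given in the sources used here. The values were used as deposited. The platform annotation gave 21789 clusters 1 symbol, 1621 several and 9913 none. The genes and lists were chosen with earlier results of these data known. The named genes were the 8 with a row, of each list the genes past the test (up to 6 by size) and its brightest gene that did not pass, and 6 genes of closest pattern by each of 2 measures. Lists of markers covered macrophages, neutrophils, lymphocytes, adipocytes, fibroblasts, mesothelium, endothelium, hepatocytes and striated muscle. Beating and non-beating arrays were compared in limma 3.58.1 (R 4.3.3; lmFit and eBayes, two-sided), with Benjamini-Hochberg adjustment over all clusters and a threshold of 0.05; 4 arrays a group limit the precision. The step was tested on simulated data with independent noise for each cluster and array, so deviations that genes share on an array were not covered. Alternatives were other scalings, filters, variance models and tests, a replicate block and each array left out. Promoter sequences and gene order came from RefSeq (GRCm38.p6). C3 and other listed genes without a row of their own were not analysed here.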

Additional observations from a re-analysis of the deposited data

Results flagged for a closer look

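Among 62 groups of 4 arrays examined, 4 held an array apart from the other 3 by Dixon's test at the 95% level, and chance gives about 1 such group in 20. Cfb read 5.56 in non-beating replicate 4, below the other 3 non-beating arrays. Osmr, the oncostatin M receptor, read 8.45 in the same non-beating replicate 4, again below the other 3. Lbp read 6.61 and the collectin Colec12 read 6.79 in beating replicate 2, each below the other 3 beating arrays.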

How the results depend on the processing

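No difference between beating and non-beating changed sign in any of the 8 genes under any alternative run. Of the 5 genes called lower, 4 (Serpina3n, Cfb, Lcn2 and Il1rn) kept the call without each array in turn. The number of the 8 genes called lower ranged from 4 to 8 without 1 array (8 without non-beating replicate 4). It was 3 with a log2 difference of at least 1 also required. It was 0 by a t-test after the study's methods, at an unadjusted p under 0.0001 with a 1.5-fold filter. That re-run kept 7976 clusters and called 26 lower and 195 higher, against 1114 and 940 by limma. Its counts differ from those that the study reports for its own class comparison. By the t-test with Benjamini-Hochberg adjustment 375 clusters were lower and 491 higher. Without 1 array, 438 to 1023 clusters were lower and 569 to 914 higher. Of the related lists, 4 genes were lower by the adjusted t-test and 0 by the filtered one, against 23 by limma, and 7 to 16 were lower and 0 to 1 higher without 1 array. Replicates with the same number did not deviate together over all clusters (correlations of -0.012, 0.028, -0.0094 and 0.020). The study took the non-beating cells from the dishes that gave the beating colonies. Which samples shared dishes is not given in the sources used here, so the numbers were not used as pairs. The correlations cannot show that no samples were paired. With a replicate block 645 clusters and 6 of the 8 genes were lower (Serping1 adjusted p = 0.0176). In the round pool minus beating, 3 values reversed: C1ra and Lcn2 became -0.14 and -0.23 with each array centred on its median, and Il1rn became 0.48 after quantile normalization. The cause was not tested. The alternative of other rows of a gene gave no value, since each of the 8 genes had 1 row. In beating, C2, Lcn2, C1ra and Cfb read 4.02 to 4.25 against array medians of 3.12 to 3.17, and signals that near background limit what a fold can show.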
